A study of Mus musculus with 2 samples.

Results

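The cluster described here is a run of microRNA hairpins at the distal end of the Dlk1-Dio3 region on mouse chromosome 12. Its members were chosen by position alone: every hairpin of the count tables that the GENCODE M21 annotation places on the plus strand of the mm10 assembly between positions 109.7 and 109.76 Mb. The rule took 39 of 2202 annotated hairpins, from Mir379 (chromosome 12, 109709060 to 109709125) to Mir3072 (109747878 to 109747960). Each hairpin is a precursor RNA folded on itself, and a mature microRNA can be cut out of either of its arms. The tables give 1 count per hairpin and do not separate the arms or the parental alleles.

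Small RNA from heart tissue of female B6CASTF1/J mice at 25 days of age was sequenced in 2 libraries, treated here as 1 per mouse. The labels name no treatment. A free-text label gives the same age number in months, so the age rests on the age field and the source name, which say days. B6CASTF1/J is a first-generation cross between C57BL/6J and CAST/EiJ mice, a genotype that both samples share. The labels number the libraries as biological replicates 1 and 2 of 1 group but give both the same donor identifier. The spread between them, and every difference called below, may thus be partly or wholly technical. The p-values below set 2 counts against counting error only and do not measure spread between animals. Whole heart mixes muscle, vessel, connective and blood cells, so fewer cells of a type and less RNA per cell cannot be told apart. Replicate 1 held 5005996 reads, 2050498 of them on hairpins, and replicate 2 held 6452546 and 2661090. Levels are CPM, counts scaled by the sum of hairpin counts of the library, with the SD over the libraries (n = 2).

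The Dlk1-Dio3 region is imprinted: protein-coding genes such as Dlk1 are read from the paternal chromosome, and the non-coding transcripts Meg3, Rian and Mirg from the maternal one. The microRNAs are thought to be cut from long maternal transcripts that run through these genes, so that members of a cluster would start from a common precursor. The group is best known from placenta, embryo and brain, where miR-134 restrains the growth of dendritic spines, and many of its members fall in other tissues after birth. In heart and muscle, miR-410 and miR-495 have been studied in the proliferation of newborn cardiomyocytes, miR-154 in the response to pressure overload, and the group as a whole as a target of the transcription factor MEF2A in muscle regeneration.

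The mature sequences below belong to the 10 members with the highest mean CPM, and to Mir1193, which shares a seed with 1 of them. They are from RefSeq (GRCm38.p6, the assembly that mm10 also names), written 5′ to 3′, with the seed (bases 2 to 8, the part that pairs with target RNAs) in capitals. Mir379, Mir411 and Mir1193 come first because their seeds overlap.
mmu-miR-379-5p: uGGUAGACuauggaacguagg
mmu-miR-1193-5p: uGGUAGACcggugacguaca
mmu-miR-411-5p: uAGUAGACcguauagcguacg
mmu-miR-379-3p: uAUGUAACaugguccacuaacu
mmu-miR-411-3p: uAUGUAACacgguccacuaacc
mmu-miR-1193-3p: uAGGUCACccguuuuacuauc
The other 8 members of that group each carry seeds of their own within the cluster.
mmu-miR-541-5p: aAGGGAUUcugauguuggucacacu
mmu-miR-541-3p: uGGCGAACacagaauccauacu
mmu-miR-154-5p: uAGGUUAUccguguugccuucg
mmu-miR-154-3p: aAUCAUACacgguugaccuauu
mmu-miR-382-5p: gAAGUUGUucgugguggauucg
mmu-miR-382-3p: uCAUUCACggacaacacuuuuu
mmu-miR-487b-5p: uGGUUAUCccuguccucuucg
mmu-miR-409-5p: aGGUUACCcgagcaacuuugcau
mmu-miR-409-3p: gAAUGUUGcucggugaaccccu
mmu-miR-299a-5p: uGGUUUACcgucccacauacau
mmu-miR-299a-3p: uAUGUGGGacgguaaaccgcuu
mmu-miR-134-5p: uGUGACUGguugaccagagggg
mmu-miR-134-3p: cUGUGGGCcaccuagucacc
mmu-miR-485-3p: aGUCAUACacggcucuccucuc

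The first 2 hairpins of the cluster are close relatives in sequence. The 3p arms of Mir379 and Mir411 share the seed AUGUAAC, and over 22 bases they differ at U10C and U22C (miR-379-3p first, positions counted from its 5′ end). Their 5p arms differ at 7 of 21 bases, and the change within the seed is G2A, so that these arms carry different seeds. The miR-379-5p seed GGUAGAC recurs in miR-1193-5p, cut from a hairpin 6.61 kb downstream. RefSeq listed 71 mature sequences for 38 of the 39 members, with 65 distinct seeds, and 6 of those seeds were shared by a pair of members. Apart from the seeds of Mir379, Mir411 and Mir1193, the pairs were miR-376c-5p with miR-376b-5p, miR-1197-5p with miR-758-5p, miR-494-5p with miR-410-5p, and miR-453 with miR-496a-5p. Shared seeds did not mean equal levels: Mir411 had 647 ± 100 CPM and Mir379 417 ± 27.6 CPM, while Mir1193 had 21.5 ± 8.15 CPM.

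Most of the cluster was found in the heart, at low levels. With detection set at 10 counts or more in both libraries, 26 of the 39 members were detected, against 13.1% of all 2202 hairpins. The cluster held 5517 counts in replicate 1, 0.269% of hairpin counts (exact binomial 95% interval 0.262% to 0.276%), and 7236 counts in replicate 2, 0.272% (0.266% to 0.278%). The intervals of the 2 libraries overlapped. These shares are of the sum of hairpin counts. The comparison of libraries below uses another scaling, under which the median log2 ratio of tested members was 0.37, so near-equal shares do not mean unchanged levels. The median level of the detected members was 23.5 CPM, against 94.2 CPM over the 288 detected hairpins of the tables, and 6 members lay above that median. Mir411, the highest member, ranked 76 among all hairpins.

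A handful of hairpins carried the signal. Mir411, Mir541, Mir379 and Mir154 together held 69.9% of cluster counts in replicate 1 and 68.2% in replicate 2, and the 8 highest members of each library held 87.9% and 87.6%. The mean CPM of Mir411 was 123 times that of Mir496a, the lowest detected member. Across all 39 members the levels in the 2 libraries had a Spearman rho of 0.94 and a Pearson r of 0.95 on log10(CPM + 1). These points share the hairpin and its base composition, so the values describe the order of members and are not a test.

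**Figure D1:**
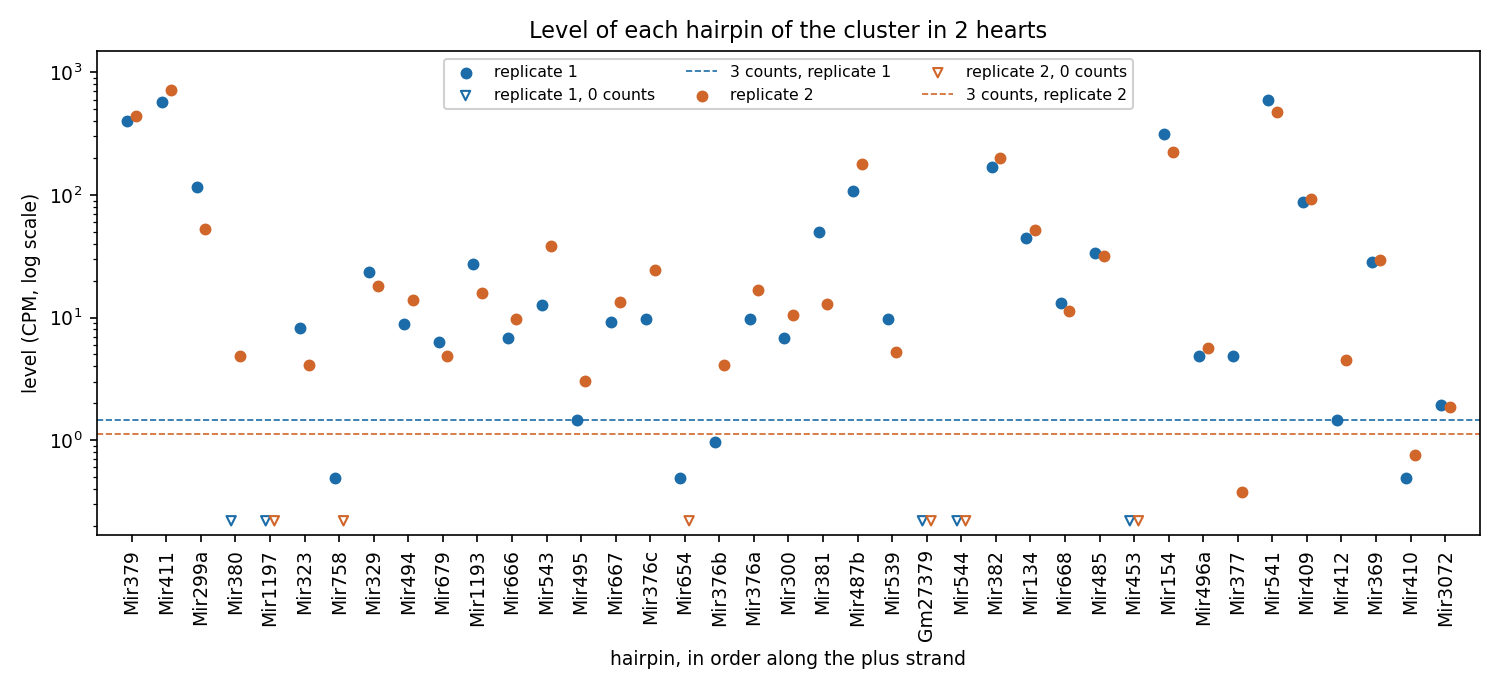
Level of each of the 39 hairpins (CPM, log scale) in replicate 1 (blue) and replicate 2 (orange), in order along the plus strand; open triangles mark 0 counts and dashed lines mark 3 counts. Mir379, Mir411, Mir154 and Mir541 stand at 224 CPM or more in both libraries, and Mir1197, Gm27379, Mir544 and Mir453 are at 0 in both.

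Of the members with 100 counts or more in both libraries, 3 open the cluster. Mir379, studied in liver lipid metabolism and in neuronal dendrites, had 816 and 1163 counts, or 398 and 437 CPM. Mir411, 1049 bases further on (109710175 to 109710256), had 1182 and 1911 counts, or 576 and 718 CPM, and was the highest member of replicate 2. Mir299a (109710638 to 109710700) is the neighbour of Mir411 at 381 bases, yet had 239 and 141 counts, 84.8 ± 45.0 CPM. Its levels of 117 and 53.0 CPM lay on both sides of those of Mir409, described below.

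The other 5 members at 100 counts lie in the downstream part. Mir487b (109727333 to 109727414), one of the group's microRNAs studied in blood vessels, had 222 and 474 counts, 143 ± 49.4 CPM, and was higher in replicate 2. Mir382 (109733771 to 109733846) had 347 and 538 counts, 186 ± 23.3 CPM. Mir154 (109738433 to 109738498) had 647 and 596 counts, 270 ± 64.7 CPM, and ranked below Mir379 in both libraries. Mir541 (109742409 to 109742498), studied in cardiac hypertrophy, had 1214 and 1267 counts, 534 ± 82.0 CPM, and was the highest member of replicate 1. Mir409 (109743158 to 109743236) had 181 and 248 counts and the closest agreement of these 8 members, at 90.7 ± 3.48 CPM.

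Hairpins differ in annotated length, from 61 to 123 bases, so members were also ordered by CPM per 100 bases of hairpin. The mature sequences are far shorter, so annotated length need not set the count, and this order is a description. Mir411 came first with 789 ± 122 CPM per 100 bases, followed by Mir379 with 633 ± 41.9 and Mir541 with 593 ± 91.1. Mir154 had 409 ± 98.1 CPM per 100 bases, Mir382 244 ± 30.7, Mir487b 175 ± 60.2, Mir299a 135 ± 71.4 and Mir409 115 ± 4.41. In this order the library values of Mir379 and Mir541 overlapped, as did those of Mir487b and Mir299a, and those of Mir299a and Mir409. Mir411 against Mir379, Mir541 against Mir154, Mir154 against Mir382 and Mir382 against Mir487b did not overlap between their library values. Ordering by CPM alone exchanged Mir379 with Mir541 and Mir299a with Mir409.

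Another 18 detected members had fewer than 100 counts in at least 1 library, and their means ran from 5.26 CPM (Mir496a) to 48.4 CPM (Mir134). Mir134, the microRNA of dendritic spines, had 92 and 138 counts. Mir485 had 69 and 84 counts and Mir369 58 and 78, with means of 32.6 ± 1.47 and 28.8 ± 0.725 CPM. The heart therefore held Mir134 at 44.9 and 51.9 CPM, both libraries far below those of Mir411.

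Undetected members numbered 13. No count fell on Mir1197, Gm27379, Mir544 or Mir453 in either library, which allows up to 3 counts each, 1.46 CPM in replicate 1 and 1.13 CPM in replicate 2. The other 9 had at most 13 counts in a library. Among them were both members studied in newborn cardiomyocyte proliferation: Mir410 (109743715 to 109743795) had 1 and 2 counts, 0.62 ± 0.187 CPM, and Mir495 had 3 and 8. Mir410 is used to mark the distal limit of the cluster, and the last hairpin by position, Mir3072, had 4 and 5 counts, 1.91 ± 0.0508 CPM.

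Level did not follow position along the cluster. From Mir379 to Mir3072 the hairpins span 38.9 kb, with gaps of 20 to 4368 bases (median 556), and the Spearman rho of mean level against start was -0.04 over 39 hairpins (Pearson r -0.02). Distance from the nearer of Mir379 and Mir410 gave a rho of -0.12. Neighbours were little more alike than distant members: the level of a hairpin against that of the next had a rho of 0.09 over 38 pairs. The median ratio within a pair of neighbours was 4.23 on CPM plus 1, against 6.4 over all 741 pairs, and 11 neighbouring pairs differed over 10-fold.

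The few high hairpins were unevenly placed, and a long stretch held none of them. The following 3 stretches were marked off after the values were seen and are a description. Mir379, Mir411 and Mir299a, in the first 1.64 kb, held 40.5% and 44.4% of cluster counts in replicates 1 and 2. The next 18 hairpins, Mir380 to Mir381, spread over 15.1 kb and held 6.80% and 7.17%, although 12 of them were detected. No hairpin of that stretch exceeded 103 counts in replicate 1 or 102 in replicate 2. The last 18 hairpins, Mir487b to Mir3072, held 52.7% and 48.4% over 20.6 kb, through the 5 members at 100 counts named above. The median hairpin was alike in these 2 stretches, 8.49 CPM from Mir380 to Mir381 and 9.86 CPM from Mir487b to Mir3072, and the last hairpins by position, Mir410 and Mir3072, were among the lowest. A division into 3 sets of 13 hairpins by order, which used no value, gave 44.0%, 14.0% and 42.0% of counts in replicate 1 and 48.5%, 17.3% and 34.2% in replicate 2, with medians of 8.78, 9.27 and 13.2 CPM and of 13.9, 10.5 and 11.3 CPM.

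**Figure D2:**
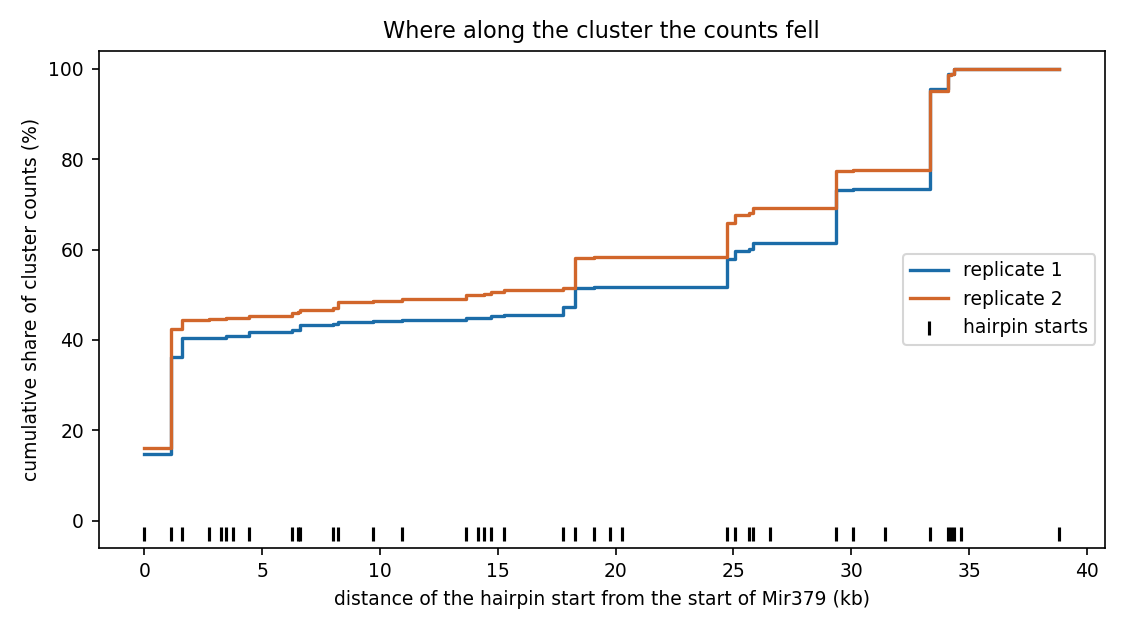
Cumulative share of cluster counts (%) against distance of the hairpin start from the start of Mir379 (kb), 1 line per library, with hairpin starts as ticks. Both lines climb past 40% within the first 1.64 kb, stay nearly flat to Mir381, and rise again in steps at Mir487b, Mir382, Mir154 and Mir541.

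Steep steps between close neighbours occurred in both libraries. Per 100 bases, Mir411 stood 3.80-fold above Mir299a in replicate 1 and 10.4-fold in replicate 2. Mir487b stood 10-fold and 30.6-fold above Mir539, 714 bases downstream. Mir154 exceeded Mir496a, 620 bases downstream, by 77.4-fold and 47.6-fold, on 10 and 15 counts of Mir496a. The steps at the distal end were as sharp in counts: Mir409, with 181 and 248, lies 52 bases from Mir412, with 3 and 12, and Mir369, with 58 and 78, lies 218 bases from Mir410, with 1 and 2.

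The cluster is named after Mirg, but the annotated gene (chromosome 12, 109729764 to 109749460, 12 transcripts) covers only its downstream part. Of the members, 25 lie upstream of the annotated Mirg start and 14 within it. Of these 14, 5 are intronic (Mir453, Mir154, Mir496a, Mir541 and Mir409), 5 overlap an exon in part (Mir382, Mir668, Mir412, Mir369 and Mir3072) and 4 lie inside an exon of at least 1 transcript (Mir134, Mir485, Mir377 and Mir410). The upstream members held 0.149% ± 0.0138 of hairpin counts and the members within Mirg 0.122% ± 0.0117. The upstream share was the larger in each library, 0.139% against 0.130% in replicate 1 and 0.159% against 0.113% in replicate 2. Members at or near 0 and members at high counts were found in both groups.

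Reads at the members came from the annotated strand: reads on the opposite strand numbered 0 in replicate 1 and 1 in replicate 2. For 5 members (Mir299a, Mir380, Mir376a, Mir539 and Mir409) another hairpin is annotated on the opposite strand, and none of these partners had more than 1 count. In the deposited column that counts both strands together, those 5 members stand at 0, while they hold 460 and 461 counts in the stranded column used here. Long stretches shared with other hairpins were few. The longest stretch a member shared with any other hairpin had a median of 13 bases. In 5 members (Mir411, Mir758, Mir376c, Mir376b and Mir487b) it had 20 bases or more. Each of these stretches was shared with another member of the cluster: Mir411 with Mir758, and Mir376c and Mir487b with Mir376b. Reads placed equally well on several sites made up 38.5% and 41.6% of the libraries and entered no hairpin count, and the part of them that belongs to these members was not measured.

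The nearest relatives in the genome are the proximal hairpins of the same imprinted region, 22 hairpins between 109.5 and 109.7 Mb on either strand, of which 11 were detected and 7 were at 0 in both libraries. Their sum was 0.223% and 0.337% of hairpin counts, a mean of 0.280% ± 0.0806. The cluster stood at 1.21 times the proximal sum in replicate 1 and at 0.807 times in replicate 2, so the order of the 2 groups turned between libraries. A single hairpin set that ratio: Mir127, which lies antisense to the paternally expressed gene Rtl1, had 3456 and 7321 counts, 2218 ± 754 CPM, and 75.6% and 81.6% of the proximal counts. Without Mir127 the cluster stood at 4.94 and 4.39 times the proximal sum. In contrast to the proximal group, no member of the cluster held more than 26.4% of its counts in either library.

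**Figure D3:**
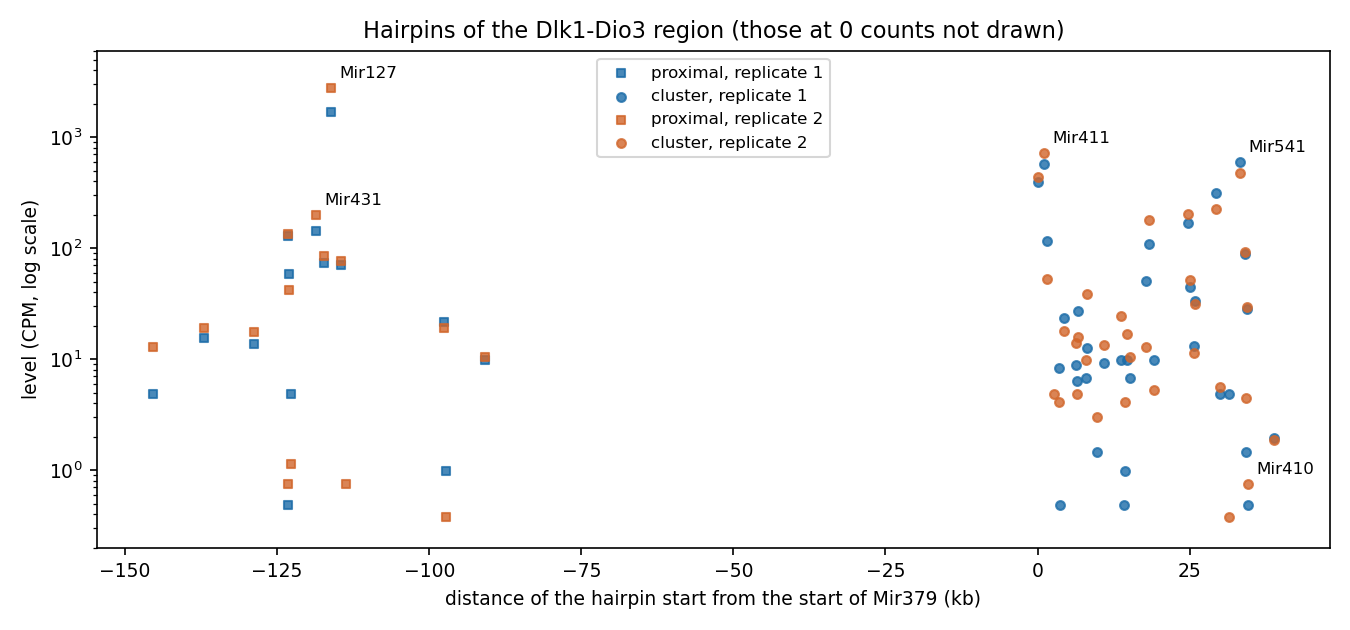
Level of the hairpins of the Dlk1-Dio3 region (CPM, log scale) against distance from the start of Mir379 (kb), squares for proximal hairpins and circles for the cluster, colours for the libraries, hairpins at 0 left out. Mir127 at 1685 and 2751 CPM is above every member of the cluster, in which high and low hairpins stand side by side.

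Cell-type markers were read beside these levels. The cardiac muscle microRNAs Mir208a, Mir208b and Mir499, encoded within myosin genes, were all detected and made up 0.444% and 0.829% of hairpin counts. In a neuronal list, 5 of 13 hairpins were detected and 5 were at 0 in both libraries (Mir124a-1, Mir124a-2, Mir124a-3, Mir9-1 and Mir9-2), and the list summed to 0.0236% and 0.0245%. The copies of Mir124a, and those of Mir9, give the same mature microRNA, and reads that fit several of them equally well entered no hairpin count. Counts of 0 there say nothing of the level of these microRNAs. The detected neuronal hairpins were Mir128-1, with 360 and 487 counts (179 ± 5.26 CPM), and Mir128-2, Mir137, Mir138-1 and Mir138-2, with means of 9.12 to 15.2 CPM. Reads that fit several copies of Mir128, or of Mir138, would be missing in the same way, so these levels and the sums of the list may be too low. The part of the neuronal hairpins in the level of the cluster was not tested. Erythroid hairpins (3 of 3 detected) summed to 0.178% in replicate 1 and 0.0869% in replicate 2. The cardiac sum was thus higher in replicate 2, through Mir208a alone (1620 and 5862 CPM in replicates 1 and 2). In CPM, Mir208b (191 and 112) and Mir499 (2629 and 2317) were lower in replicate 2. The erythroid sum was lower in replicate 2, as was each hairpin of that list. The summed share of the cluster stood at 0.269% and 0.272%. All these values are scaled by the sum of hairpin counts, while the comparison below uses effective library sizes. Directions of small differences, such as that of Mir499, were not examined under that scaling. The part of these lists in the differences between libraries given below was not tested.

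Each hairpin with 10 counts or more in at least 1 library was compared between libraries. The exact binomial test, two-sided, set the split of the hairpin's counts against the split given by TMM effective library sizes, and p-values were Benjamini-Hochberg adjusted over the 326 hairpins. The test compares these libraries and not conditions. Of 30 tested members, 16 passed in either direction (53.3%), against 62.6% of all 326 hairpins. Among these members 12 (40%) were higher in replicate 2, against 36.2% of all, and 4 (13.3%) were lower, against 26.4% of all. The median log2 ratio of replicate 2 over replicate 1 was 0.37 for the members and 0.09 for all tested hairpins. It was 0.39 for the proximal hairpins of the region, of which 6 of 12 tested (50%) were higher and 0 lower. Scaling by total count moved the median of all hairpins to -0.14 and that of the members to 0.16, with 6 members higher and 6 lower, against 23.3% and 35.9% of all.

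In 3 of 38 pairs of adjacent hairpins, not all of which were tested, the members were called in opposite directions. The pairs with Mir411 and with Mir380 share Mir299a. Of all tested hairpins 36.2% were called higher and 26.4% lower, and opposite calls of neighbours elsewhere were not counted. Mir411 had a log2 ratio of 0.55 (adjusted p = 1.66e-24, exact binomial test), while Mir299a, the next hairpin, had -0.90 (adjusted p = 5.87e-09, exact binomial test). Mir380, which follows Mir299a at 1102 bases, had 0 and 13 counts and was called higher in replicate 2 (exact binomial test, adjusted p = 0.000638). Mir381 had 103 and 34 counts, a log2 ratio of -1.67 (exact binomial test, adjusted p = 1.59e-10), while Mir487b, 436 bases downstream, had 222 and 474 counts, a log2 ratio of 0.94 (exact binomial test, adjusted p = 2.89e-16). Mir543, between Mir380 and Mir381, had 26 and 102 counts and the highest ratio of the members with 100 counts in a library, 1.74 (exact binomial test, adjusted p = 6.94e-10). Mir154 was lower in replicate 2 by a small amount, a log2 ratio of -0.26 (exact binomial test, adjusted p = 0.00269). Each of these 7 calls held under every scaling and setting in which the hairpin was tested.

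Some other differences depended on the scaling and on which hairpins were kept. Mir379 had a log2 ratio of 0.36 (exact binomial test, adjusted p = 7.51e-08), which total-count scaling brought to 0.13 (adjusted p = 0.0677). Mir541 did not pass in the main setting with TMM scaling, at -0.08 (exact binomial test, adjusted p = 0.205). It was lower in replicate 2 under total-count scaling, at -0.31 (exact binomial test, adjusted p = 1.83e-07). With TMM scaling it was also lower without the 10 highest hairpins, at -0.20 (exact binomial test, adjusted p = 0.00155). The same held at a minimum of 50 counts (-0.25) and with no minimum beyond 1 count (-0.19). Mir409 passed narrowly at 0.31 (exact binomial test, adjusted p = 0.0482) and had 0.08 under total-count scaling (adjusted p = 0.651). It also lost its call with TMM scaling in each of the settings just named for Mir541. Of all 16 calls, 6 of the 12 higher and all 4 lower ones held under every scaling tried. The 2 directions were not tried alike. The median log2 ratio of all tested hairpins moved from 0.09 to -0.14 under total-count scaling and to -0.04 without the 10 highest hairpins. Both shifts favour lower calls, while DESeq2 size factors moved it only to 0.15. The share of calls that held over all tested hairpins is not given. Of the 30 tested members 23 (76.7%) differed less than 2-fold, near the 72.4% of all tested hairpins. The median coefficient of variation was likewise close, 24.5% for detected members and 25.1% for all detected hairpins.

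**Figure D4:**
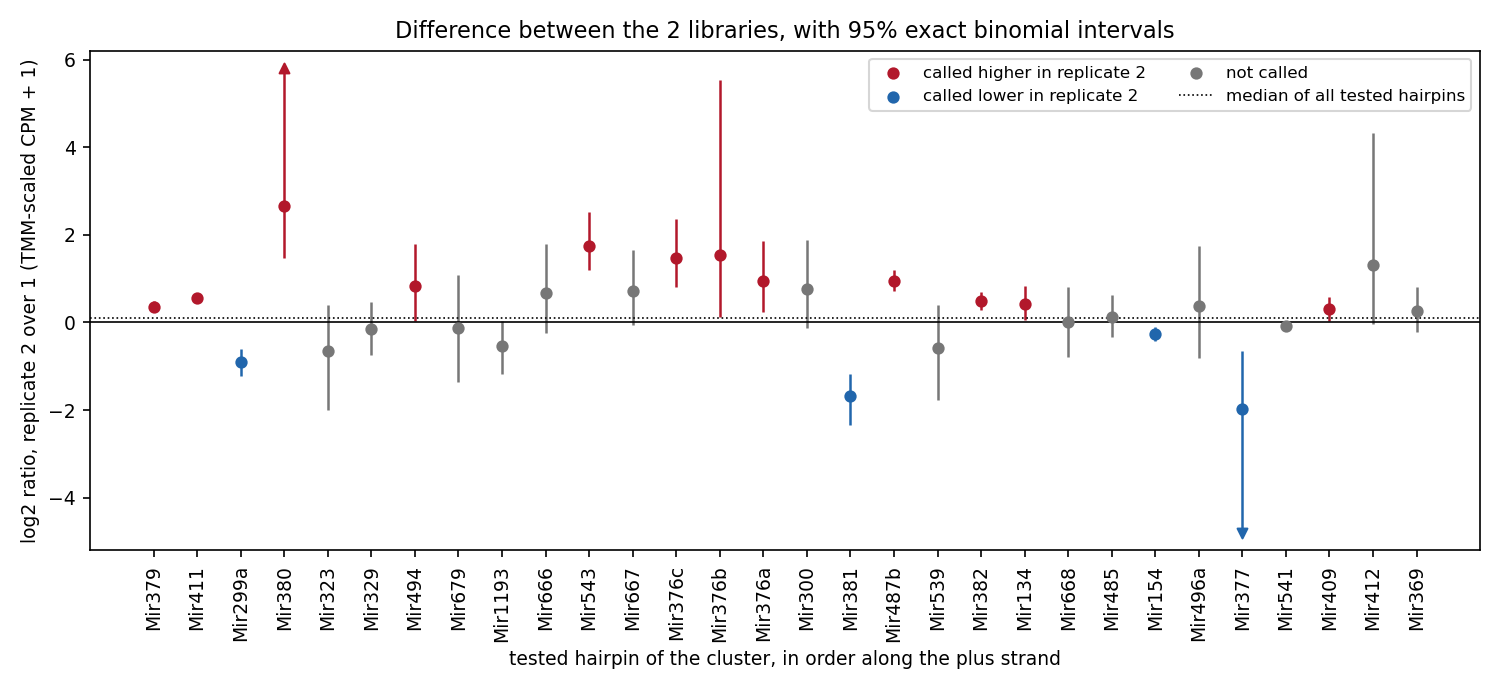
Log2 ratio of replicate 2 over replicate 1 (TMM-scaled CPM plus 1) for the 30 tested hairpins in order along the plus strand, with 95% exact binomial intervals of the count ratio; red, called higher; blue, called lower; grey, not called; arrows, intervals beyond the axis; dotted line, median of all tested hairpins (0.09). The adjacent pairs Mir411 and Mir299a, Mir299a and Mir380, and Mir381 and Mir487b were called in opposite directions. Of all tested hairpins, 62.6% were called in either direction.

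The sequence-related miR-376 hairpins, whose mature forms are known targets of A-to-I editing, lay on 1 side. Mir376c had 20 and 65 counts, Mir376b 2 and 11, and Mir376a 20 and 45. All 3 were called higher in replicate 2, as were 36.2% of all tested hairpins. Their log2 ratios were 1.46 (exact binomial test, adjusted p = 1.59e-05), 1.53 (adjusted p = 0.0406) and 0.95 (adjusted p = 0.0154). Under total-count scaling Mir376c kept its call, and Mir376b (adjusted p = 0.0786) and Mir376a (adjusted p = 0.0722) lost theirs. The 5p arms of Mir376c and Mir376b differ by a single base, U19G (miR-376c-5p first), over 22 bases, and these hairpins share a stretch of 31 bases, so their counts are uncertain where a read fits both. Mir300 and Mir381, whose 3p arms differ at G4A, U21G and C22U (miR-300-3p first), went apart: Mir300 had 14 and 28 counts and was not called (adjusted p = 0.128), and Mir381 was lower in replicate 2.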

How the data were processed

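The authors deposited, for each library, a table of raw counts of reads per annotated hairpin, on mm10 with GENCODE M21 per the file headers of the notes deposited with the tables. For the aligner and counting program, names are not given in the sources used here. Separate columns count either strand, the hairpin strand (used here) and the opposite strand. Rows for reads outside the hairpins were kept out of totals: in replicates 1 and 2, 14.1% and 11.5% of reads were unmapped and 6.48% and 5.64% lay in no hairpin. All 2202 identifiers matched the annotation.

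CPM used the sum of hairpin counts. TMM factors (1.083 and 0.9233) came from edgeR 4.0.16 in R 4.3.3, on hairpins with 10 counts or more in a library. Log2 ratios used a pseudocount of 1 CPM. Binomial tests (scipy 1.17.1) were called at an adjusted p of 0.05. They were run on simulated data with counting error only, which cannot show how often other spread between libraries gives a call. Intervals are exact (95%) and cover counting error only, since PCR copies were not told apart. With 1 library each, no model with replicates could be fitted.

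The members and lists were chosen with earlier results of these data known. Full values went to members with 100 counts in both libraries, to Mir379, Mir411 and Mir410 and to the first and last member. Calls were described for the 3 highest and 3 lowest ratios among members with 100 counts in a library. Further members named were picked with their values in view. Alternatives were the either-strand column, other minimums, denominators, pseudocounts and scalings (total count, DESeq2 1.42.0 size factors), leaving out the 10 highest hairpins, and 1 library alone.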

Additional observations from a re-analysis of the deposited data

How the results depend on the processing

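Detection at 50 counts left 11 members, against 26 at 10 counts, and a single library gave 27 to 29. The share of hairpin counts was 0.354% in the either-strand column, 0.111% of all reads and 0.867% without the 10 highest hairpins in the denominator, against 0.270%, and 0.269% to 0.272% with 1 library. Level against position had a rho of 0.13 over detected members and 0.0 in the either-strand column, against -0.04, and -0.06 to -0.01 with 1 library. Members higher in replicate 2 numbered 7 in the either-strand column, 6 under total-count scaling and 6 at a minimum of 50 counts, against 12. They numbered 7 with no minimum beyond 1 count and 8 without the 10 highest hairpins. Of all tested hairpins, 33.8%, 23.3%, 33.2%, 13.3% and 27.5% were higher in these settings, in the order given, against 36.2%. The minimum of 50 counts tested 15 members, the either-strand column 25 and no minimum beyond 1 count 35, against 30. Members lower in replicate 2 numbered 3 to 6 over all settings, against 4, and no call changed direction. Of all tested hairpins, between 14.0% (no minimum beyond 1 count) and 40.8% (minimum of 50 counts) were lower, against 26.4%. Without the highest hairpin of each, the cluster stood at 3.56 times the proximal sum, against 1.01, and at 0.807 to 1.21 with 1 library. The comparison of libraries needs both, so it has no value with 1 left out. No paired analysis was possible because all samples belong to 1 group. With 2 libraries and few counts at most members, differences below about the counting intervals given were not detectable.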

Other observations

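Outside the cluster, few hairpins with counts in these hearts carried the seed of a member. The seed ACACACC of miR-329-3p recurs in miR-362-3p, and Mir329 had 20.7 CPM beside 22.2 CPM for Mir362. The seed AGGUCAC of miR-1193-3p recurs in miR-370-5p, from the proximal part of the same region, with 21.5 CPM for Mir1193 and 10.1 CPM for Mir370. The seed GAGGUUG of miR-377-5p recurs in miR-672-5p, with 2.63 CPM for Mir377 and 15.5 CPM for Mir672, and that of miR-412-3p, UCACCUG, in miR-1983, with 2.99 CPM for Mir412 and 53.2 CPM for Mir1983. Hairpin counts do not show which arm was present.

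Among mature sequences, 12 of 36 5p arms of the cluster (33.3%) began with U, against 42.8% of all 5p entries, and 18 of 34 3p arms (52.9%), against 42.4% of all 3p entries. These are counts of annotated sequences and were not weighted by reads or tested.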
